A study of Mus musculus with 15 samples.

Results

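The hair keratins and keratin-associated proteins are the structural proteins of the hair shaft and of the sheath that moulds it. Members were taken by name: every gene of the count table whose symbol begins with *Krtap*, and the 18 keratins of the inner root sheath and hair shaft, where the gene had at least 10 counts over all 15 libraries. Of the 71 genes with such a name in the table, 53 reached this minimum, 15 keratins and 38 *Krtap* genes, among 55487 genes in all. The other 18 had 0 to 9 counts, among them *Krt82* and *Krt87* with 9 and 8 counts, and *Krt85* was not analysed here because no gene of the table bears that symbol. The libraries were 3′ mRNA sequencing of skin tissue from 3-week-old mice on a C57BL/6 background. There were 5 WT libraries, from littermates with loxP-flanked *Otulin* alleles and no Cre, and 5 non-lesional and 5 lesional libraries from OTULIN E-KO mice, which carry *Otulin* fl/fl and K14-Cre, so that OTULIN is deleted where the keratin 14 promoter is active, in keratinocytes. Lesions in this line are focal, and the sources used here leave it unstated if 1 mouse gave both kinds of OTULIN E-KO sample. The profiles are described as those of 5 mice, but the labels name no mouse for a library.

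Hair is made in the bulb of a growing follicle. Matrix cells there divide and differentiate into concentric layers, with the inner root sheath outside and the cuticle, cortex and medulla of the shaft within. Keratins form filaments as pairs of a type I and a type II chain, with *Krt25*, *Krt27* and *Krt28* (type I) and *Krt71*, *Krt72* and *Krt73* (type II) in the inner root sheath and other pairs in the shaft. Keratin-associated proteins fill the space between shaft filaments and crosslink them, and fall into high-sulfur, ultra-high-sulfur and high glycine-tyrosine families. A resting follicle keeps a finished club hair and makes little of these mRNAs, so their levels in whole skin are known to vary with the hair cycle.

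Libraries held 1962604 to 2567138 counts, so a count of 0 allows up to 3 counts, which is 1.53 CPM in the smallest library and 1.17 CPM in the largest. Levels are in CPM, counts scaled to library size and by TMM. A 3′ end library gives about 1 tag per transcript whatever its length, so levels of different genes are on a per-transcript scale. *Otulin* had 22.8 ± 6.46 CPM in WT, 25.9 ± 4.07 CPM in non-lesional and 24.5 ± 3.40 CPM in lesional libraries (SD, n = 5 each), so whole-skin *Otulin* counts did not separate the genotypes. Tags of the 3′ end need not cover the deleted part of the gene, so these counts do not check the labels. 3 libraries stood apart. WT replicate 1 held most counts of the hair genes, and lesional replicates 2 and 11 held 12647 and 32713 summed CPM of 6 genes of inflamed epidermis, where the other lesional libraries held 245 to 429. Comparisons of members are given with and without them. RNA quality of single libraries is not given in the sources used here.

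Promoters of 45 of the 53 genes were matched in the RefSeq table of build GRCm38.p6, which left *Krt35*, *Krt81*, *Krt83*, *Krt86*, *Krtap1-3*, *Krtap7-1*, *Krtap9-1* and *Krtap10-10*. The stretch of 60 bases before the RefSeq start is given for 8 genes on which the results turn, 5 with most counts in WT replicate 1 and 3 with a spread over the libraries, with the motif TATAAA in capitals. All 8 lie on the minus strand and are written 5′ to 3′ on that strand. RefSeq starts can differ from those of the annotation used for the counts.
Krt25, chr11:99322952-99323011: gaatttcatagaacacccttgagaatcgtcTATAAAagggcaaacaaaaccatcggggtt
Krt71, chr15:101743098-101743157: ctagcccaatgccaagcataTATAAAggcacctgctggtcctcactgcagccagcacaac
Krt34, chr11:100041555-100041614: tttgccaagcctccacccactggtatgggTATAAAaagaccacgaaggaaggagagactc
Krtap8-1, chr16:89487953-89488012: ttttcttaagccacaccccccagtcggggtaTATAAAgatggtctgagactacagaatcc
Krtap3-3, chr11:99550864-99550923: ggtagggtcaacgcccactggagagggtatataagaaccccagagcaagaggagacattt
Krtap3-2, chr11:99556854-99556913: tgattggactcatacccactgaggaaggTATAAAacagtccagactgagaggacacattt
Krt32, chr11:100088270-100088329: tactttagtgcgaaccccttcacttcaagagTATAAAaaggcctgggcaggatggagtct
Krt28, chr11:99374904-99374963: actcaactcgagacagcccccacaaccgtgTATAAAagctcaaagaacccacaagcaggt
The TATA motif is the core promoter element bound by TBP. It stood in 7 of these 8 stretches, and *Krtap3-3* held none in this window.

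The motif TATAAA was found on either strand of the 250 bases before the start in 38 of 45 promoters (84.4%), against 12.4% of all 32851 promoters of the table. On the sense strand of the last 50 bases it was found in 30 of 45 (66.7%), against 2.63% of all promoters. In 27 of 45 its first base lay 20 to 40 bases before the start, against 1.99% of all. CTTTGA, the core of the site bound by LEF1 and TCF factors, was found on either strand of the 250 bases in 14 of 45 (31.1%) against 13.8% of all, and GACGC in 4 of 45 (8.89%) against 22.6%. On the sense strand of the last 50 bases CTTTGA was found in 0 of 45 against 1.09% of all, and GACGC in 2 of 45 (4.44%) against 3.61%. Neighbouring genes of a family share sequence, so these promoters are not independent, and a match describes letters and not a working site.

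**Figure D1:**
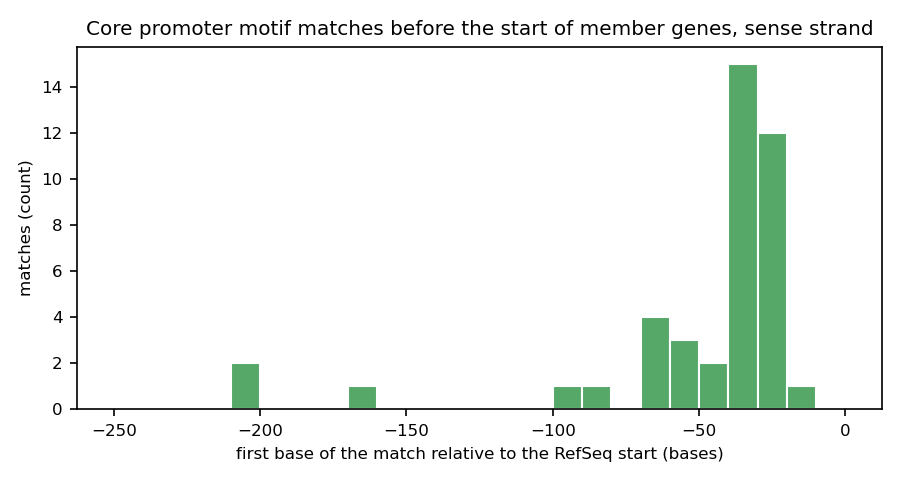
Distance of each sense-strand match of the TATA motif from the RefSeq start, for the 45 matched member promoters, in bins of 10 bases over the 250 bases before the start (x axis: bases, y axis: number of matches). Most matches lie 20 to 40 bases before the start, where 27 of the 45 promoters have one.

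The 53 genes lie in gene clusters, and gene positions are those of build GRCm38. Of these, 25 are on chromosome 11, where the type I keratins lie beside 17 *Krtap* genes, 7 are type II keratins on chromosome 15, 19 are *Krtap* genes on chromosome 16, and 1 each is on chromosomes 1 and 10. Single-exon genes make up 36 of the 38 *Krtap* members, whereas the keratins have 5 to 10 exons. In 5 members, *Krtap19-1*, *Krtap19-2*, *Krtap19-3*, *Krtap4-6* and *Krtap4-8*, a share of the 35-base windows in the last 300 bases of the transcript also occurs in another gene, from 1.504% in *Krtap4-6* to 17.3% in *Krtap4-8*, so their counts are less certain. *Krtap10-10* and *Krtap15* each share bases with a same-strand gene, and *Krt32* with *Gm11571* on the other strand, and reads of such pairs may have been counted for both.

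Most of the hair mRNA of the series was in a single WT library. Of 8109 counts of the 53 genes, 4820 (59.4%) were in WT replicate 1. Over 50% of a gene's counts were in WT replicate 1 for 43 of the 53 genes (81.1%), against 76 of 20292 genes with at least 10 counts (0.375%), so that 43 of those 76 genes were members. 52 of the 53 genes (98.1%) had their highest level in WT replicate 1, against 8.65% of all genes, and *Krt28* alone had it elsewhere. Of the 53 genes 16 had under 10 counts in the other 14 libraries together, so they met the minimum of 10 counts only through WT replicate 1 and their high share there follows from it. With the minimum applied to the other 14 libraries, a choice made after the values were seen, over 50% of the counts were in WT replicate 1 for 29 of 37 members (78.4%), against 43 of 20007 genes (0.215%), and the highest level was there for 36 of the 37, against 8.26% of genes. The summed level of the 53 genes was 1869 CPM in WT replicate 1, 202 in WT replicate 13, 96.3 in WT replicate 4, 82.8 in WT replicate 7 and 102 in WT replicate 10. Non-lesional replicates 3, 6, 9, 12 and 15 had 96.7, 89.1, 85.3, 107 and 88.4 CPM. Lesional replicates 2, 5, 8, 11 and 14 had 146, 83.3, 73.9, 70.1 and 92.0 CPM. WT replicate 1 was 20.6 times the median of the other 14 libraries and 9.27 times WT replicate 13, and the 3 groups overlapped. The WT mean was 470 ± 783 CPM (SD, n = 5) with it and 121 ± 54.6 CPM (SD, n = 4) without it. Non-lesional libraries had 93.4 ± 8.88 CPM and lesional libraries 93.1 ± 30.9 CPM (SD, n = 5 each). In whole skin, fewer hair-forming cells and less hair mRNA per cell cannot be told apart.

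The spread between WT libraries was wider for these genes than for most. Among the 10 members with a count in every WT library, the highest WT level was a median 13.9 times the lowest, against 1.85 times for 16567 genes. Several of the 10 had only 1 or 2 counts in their lowest WT library, as *Krt28* with 1 against 15 in its highest. Counting error widens such ratios, and the genes compared were not matched for level. The summed level ranged 22.6-fold between WT libraries, and 2.44-fold without WT replicate 1. Every one of the 53 genes had a count in WT replicate 1, 40 in WT replicate 13, and 17 to 23 in WT replicates 4, 7 and 10. 20 members, 3 of them keratins, had 0 counts in WT replicates 4, 7 and 10 together, and 9 had 0 counts in all 4 other WT libraries. Outside WT, the number detected was highest in lesional replicate 2 with 43, non-lesional replicate 3 with 36 and non-lesional replicate 12 with 35, and lowest in lesional replicate 5 with 13. The second highest level of a gene was most often in lesional replicate 2 (17 genes), WT replicate 13 (15 genes) and lesional replicate 11 (8 genes).

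**Figure D2:**
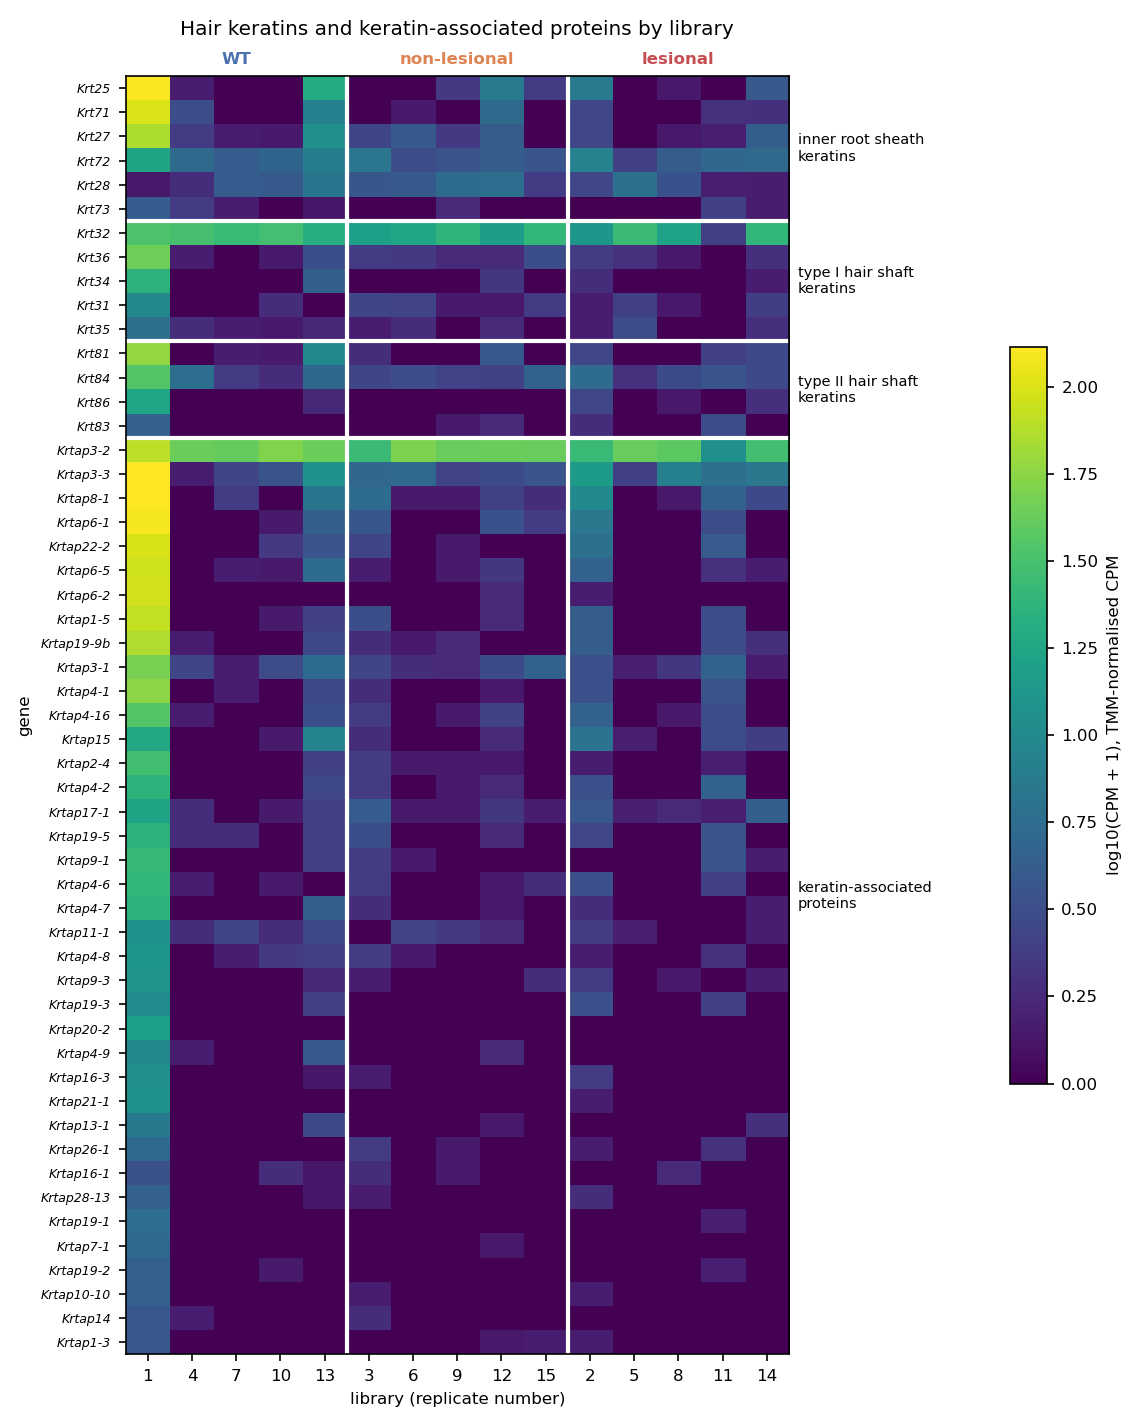
Level of each of the 53 genes (rows, ordered by class and mean level) in each of the 15 libraries (columns, by replicate number within WT, non-lesional and lesional), as log10 of TMM-normalised CPM + 1 (colour scale from 0). The column of WT replicate 1 is bright for nearly every gene, while *Krt32* and *Krtap3-2* are visible in every library and *Krt28* is dim in WT replicate 1.

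The 6 inner root sheath keratins summed to 311 CPM in WT replicate 1, 49.4 CPM in WT replicate 13 and 7.16 to 10.5 CPM in the other 3 WT libraries. Non-lesional libraries had 5.28 to 21.96 CPM and lesional libraries 6.42 to 19.5 CPM, so their highest libraries lay below WT replicate 13 and 1 non-lesional and 2 lesional libraries lay below the lowest WT library. *Krt25* (ENSMUSG00000035831, chromosome 11 from 99315516 to 99322951), a type I sheath keratin, had 317 counts in WT replicate 1, 51 in WT replicate 13, 1 in WT replicate 4 and 0 in WT replicates 7 and 10. In non-lesional replicates 3, 6, 9, 12 and 15 it had 0, 0, 3, 16 and 3 counts, and in lesional replicates 2, 5, 8, 11 and 14 it had 14, 0, 1, 0 and 6 counts. The highest library was WT in a group that also held 2 libraries at 0. *Krt71* (ENSMUSG00000051879, chromosome 15 from 101733949 to 101743109), the type II sheath keratin altered in curly-haired mouse strains, had 254 of its 298 counts in WT replicate 1, then 19 in WT replicate 13 and 11 in non-lesional replicate 12, and 0 to 5 in the other libraries. *Krt27*, a further type I sheath keratin, had 181 of 249 counts in WT replicate 1, 28 in WT replicate 13 and 0 to 8 elsewhere. *Krt73*, a keratin of the sheath cuticle, had only 19 counts in all, 8 of them in WT replicate 1. *Krt25*, *Krt27* and *Krt71* thus shared WT replicates 1 and 13 as their highest libraries, and *Krt73* had too few counts to be ranked.

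*Krt72* and *Krt28* did not follow them. *Krt72* (type II, sheath cuticle) was detected in all 15 libraries, with 42 counts in WT replicate 1, 7 to 18 in the other WT libraries, 5 to 13 in non-lesional and 3 to 17 in lesional libraries. *Krt28* (ENSMUSG00000055937, chromosome 11 from 99364872 to 99374903) is a type I sheath keratin that lies beside *Krt25* and *Krt27*. It had 1 count in WT replicate 1, 2 in WT replicate 4, 7 in WT replicates 7 and 10, and 15 in WT replicate 13. Non-lesional replicates 3, 6, 9, 12 and 15 had 6, 7, 11, 12 and 3 counts of *Krt28*, and lesional replicates 2, 5, 8, 11 and 14 had 4, 10, 6, 1 and 1. The library with the most *Krt25* and *Krt27* therefore had the fewest *Krt28* counts, together with lesional replicates 11 and 14. Its 3 groups overlapped, with means of 2.59 CPM in WT, 3.25 CPM in non-lesional and 2.06 CPM in lesional libraries. Of the counts of *Krt28* in all libraries, 1.08% were in WT replicate 1, the lowest share among the 53 genes.

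Among the type I keratins of the shaft, *Krt31*, *Krt34*, *Krt35* and *Krt36* had 41.9 to 78.9% of their counts in WT replicate 1 and at most 9 counts in any other library, and *Krt32* was in every library. *Krt36*, a shaft keratin, had 112 of 143 counts in WT replicate 1 and 0 to 6 in each other library. *Krt34* (ENSMUSG00000043485, chromosome 11 from 100037347 to 100041554), a keratin of the upper cortex, had 56 of 71 counts in WT replicate 1, 9 in WT replicate 13, 3 in non-lesional replicate 12, 2 in lesional replicate 2, 1 in lesional replicate 14 and 0 in the other 10. *Krt31*, the main type I keratin of the cortex, had 23 of 46 counts in WT replicate 1, 2 in WT replicate 10 and 0 in the other 3 WT libraries, whereas each non-lesional library had 1 to 4. *Krt35*, an early keratin of the shaft, had 13 of 31 counts in WT replicate 1 and 0 to 4 elsewhere.

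The 4 type II shaft keratins summed to 113 CPM in WT replicate 1, 1.27 to 14.2 CPM in the other WT libraries, 2.05 to 5.19 CPM in non-lesional and 1.02 to 9.06 CPM in lesional libraries. *Krt81* (ENSMUSG00000067615, chromosome 15 from 101459061 to 101463751), a cortex keratin, had 150 of 197 counts in WT replicate 1, 25 in WT replicate 13, 7 in non-lesional replicate 12 and 0 to 4 in each other library. *Krt86*, a partner of the type I cortex keratins, had 43 of 52 counts in WT replicate 1, 4 in lesional replicate 2 and 0 in every non-lesional library. *Krt83* had 9 of 18 counts in WT replicate 1, 4 in lesional replicate 11 and 0 to 2 elsewhere. *Krt84*, a hair-type keratin best known from the tongue, was the exception in this class. It was detected in all 15 libraries, with 89 counts in WT replicate 1, 11, 3, 2 and 11 in WT replicates 4, 7, 10 and 13, 4 to 8 in non-lesional and 2 to 10 in lesional libraries.

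**Figure D3:**
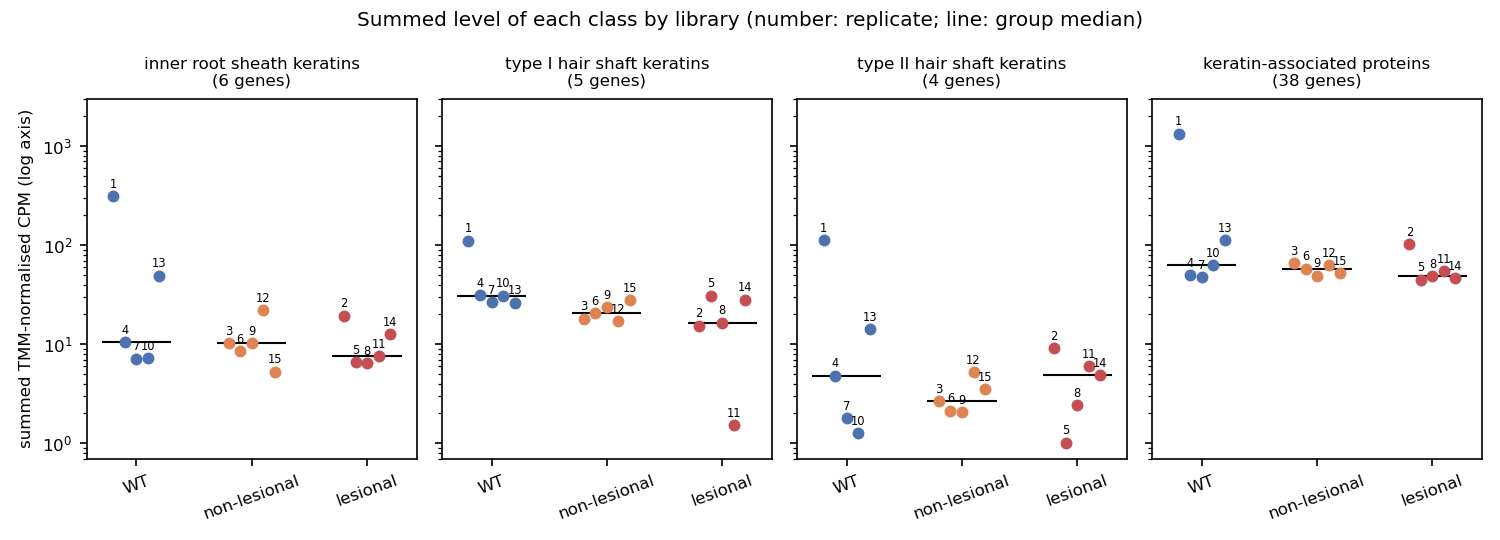
Summed TMM-normalised CPM of the 4 classes (y axis, log scale) in each library of WT, non-lesional and lesional skin (x axis), with the replicate number at each point and a line at the group median. WT replicate 1 is the highest point in every class, from 111 CPM for type I shaft keratins to 1334 CPM for keratin-associated proteins, and lesional replicate 11 is the lowest for type I shaft keratins at 1.51 CPM.

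Keratin-associated proteins gave the largest sums. The 38 genes summed to 1334 CPM in WT replicate 1, 112 CPM in WT replicate 13 and 47.4 to 62.6 CPM in the other 3 WT libraries. Non-lesional libraries had 49.2 to 65.7 CPM, and lesional libraries had 102 CPM in replicate 2 and 44.7 to 54.96 CPM in the others. Much of the sum outside WT replicate 1 was *Krtap3-2* alone. The 19 *Krtap* genes on chromosome 16, of which 13 belong to high glycine-tyrosine families, show the others better. They had 1865 counts in WT replicate 1 and 6, 10, 9 and 88 in WT replicates 4, 7, 10 and 13. In non-lesional replicates 3, 6, 9, 12 and 15 they had 36, 6, 9, 23 and 5 counts, and in lesional replicates 2, 5, 8, 11 and 14 they had 89, 2, 1, 39 and 13. WT replicate 13 and lesional replicate 2 were thus alike in these counts, and every group held libraries with 10 or fewer.

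Of the 10 *Krtap* genes with the highest mean level, 9 were mainly in WT replicate 1. *Krtap8-1* (ENSMUSG00000059632, chromosome 16 from 89487379 to 89487952), a small high glycine-tyrosine protein, had 333 counts there and 0, 3, 0 and 15 in WT replicates 4, 7, 10 and 13. Non-lesional replicates 3, 6, 9, 12 and 15 had 10, 1, 1, 4 and 2 counts of it, and lesional replicates 2, 5, 8, 11 and 14 had 20, 0, 1, 7 and 4. Each group held libraries at 0 or 1 count of *Krtap8-1* beside libraries with 10 or more. *Krtap6-1*, *Krtap6-2* and *Krtap6-5*, high glycine-tyrosine proteins of 1 family, had 311, 240 and 235 counts in WT replicate 1 and 42, 3 and 30 counts in the other 14 libraries together. The share of *Krtap6-2* in the counts of *Krtap6-2* and *Krtap6-1* was 43.6% (39.4 to 47.8%, exact 95% interval) in WT replicate 1 and 6.67% (1.40 to 18.3%) in the other libraries, whereas that of *Krtap6-5* in the counts of *Krtap6-5* and *Krtap6-1* was 43.0% (38.8 to 47.3%) and 41.7% (30.2 to 53.9%). Counts are of sequenced reads and not of molecules, so such intervals cover counting error only. *Krtap6-2* had 240 of its 243 counts in WT replicate 1, and this comparison was chosen after the values were seen. It met the minimum for members only through that library, so its share there follows in part from the rule.

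*Krtap22-2* and *Krtap19-9b*, also high glycine-tyrosine proteins, had 246 of 278 and 185 of 209 counts in WT replicate 1. *Krtap1-5*, a high-sulfur protein, had 213 of 236. For these 3 genes the next highest library was lesional replicate 2, with 11, 7 and 7 counts. *Krtap3-1* and *Krtap3-3*, high-sulfur proteins whose genes lie on either side of *Krtap3-2* on chromosome 11, were detected in all 15 libraries. *Krtap3-3* (ENSMUSG00000069722, chromosome 11 from 99550130 to 99550865) had 331 counts in WT replicate 1 and 1, 4, 6 and 29 in WT replicates 4, 7, 10 and 13. It had 9, 10, 4, 5 and 6 counts in non-lesional replicates 3, 6, 9, 12 and 15, and 29, 3, 18, 10 and 12 in lesional replicates 2, 5, 8, 11 and 14. In CPM, lesional replicates 2, 8, 11 and 14 were above every non-lesional library, and all lesional libraries were below WT replicate 1. *Krtap3-1* had 120 of 180 counts in WT replicate 1 and 1 to 12 in each other library.

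The other 28 *Krtap* genes had 10 to 161 counts in all and 42.9 to 100% of them in WT replicate 1, with a median share of 73.3%. None had more than 21 counts in any other library, and that value was of *Krtap15* in WT replicate 13. By family, the share in WT replicate 1 was 91.3% for the 3 *Krtap6* genes, 82.0% for the 5 *Krtap19* genes, 78.4% for the 7 *Krtap4* genes, which encode ultra-high-sulfur proteins, and 31.8% for the 3 *Krtap3* genes. *Krtap20-2* had 38 counts in WT replicate 1 and 0 in the other 14 libraries, and *Krtap21-1* had 28 there and 1 in lesional replicate 2. 6 of the 53 members had 0 counts in every non-lesional library and 4 had 0 counts in every lesional library.

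The mix of sheath and shaft mRNA also differed between libraries. For this description *Krt28*, *Krt32*, *Krt72* and *Krtap3-2* were set aside, since they had 1.08 to 24.9% of their counts in WT replicate 1 and the other 49 genes 41.9 to 100%, a split made after the values were seen. The 49 genes had 4488 counts in WT replicate 1, 340 in WT replicate 13, 219 in lesional replicate 2, 107 in non-lesional replicate 12, 106 each in non-lesional replicate 3 and lesional replicate 11, and 18 to 70 in each of the other 9. The other 4 inner root sheath keratins were 16.9% of these counts in WT replicate 1 (15.8 to 18.1%, exact 95% interval), 29.1% in WT replicate 13 (24.3 to 34.3%) and 32.7% in non-lesional replicate 12 (23.95 to 42.5%). They were 3.77% in non-lesional replicate 3 (1.04 to 9.38%), 5.66% in lesional replicate 11 (2.11 to 11.9%) and 10.05% in lesional replicate 2 (6.40 to 14.8%). The other 9 libraries, with 18 to 70 counts each, had 0 to 28.6%, the highest being WT replicate 4 (15.7 to 44.6%). The intervals of WT replicates 1 and 13 did not overlap, nor did those of WT replicate 13 and non-lesional replicate 12 with those of non-lesional replicate 3 and lesional replicates 2 and 11. *Krtap* genes of chromosome 16 were 41.6% in WT replicate 1 (40.1 to 43.0%), 40.6% in lesional replicate 2 (34.1 to 47.5%) and 36.8% in lesional replicate 11 (27.6 to 46.7%). They were 25.9% in WT replicate 13 (21.3 to 30.9%) and 21.5% in non-lesional replicate 12 (14.1 to 30.5%), both below the interval of WT replicate 1. Non-lesional replicate 3 had 33.96% (25.04 to 43.8%), and the other 9 libraries had 2.63 to 41.7%. With *Krt28* and *Krt72* kept, so that all 6 sheath keratins are counted, they were 17.7% in WT replicate 1 (16.6 to 18.9%), 35.4% in WT replicate 13 (30.5 to 40.5%) and 43.3% in non-lesional replicate 12 (34.5 to 52.4%) of the counts of 51 genes. On that count non-lesional replicate 3 and lesional replicates 2 and 11 had 18.4% (12.04 to 26.3%), 17.9% (13.3 to 23.4%) and 13.04% (7.49 to 20.6%). Their intervals then overlapped that of WT replicate 1. Non-lesional replicate 3 and lesional replicate 2 had a sheath share below that of WT replicate 1 only with *Krt28* and *Krt72* set aside. Lesional replicate 11 was still below it by value. The other 9 libraries had 22.6 to 47.2% on 31 to 80 counts each, so WT replicate 13 and non-lesional replicate 12 lay within the range of these libraries, and WT replicate 1, non-lesional replicate 3 and lesional replicates 2 and 11 were below all of them. Each of these is 1 library, so the shares describe libraries and not groups.

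**Figure D4:**
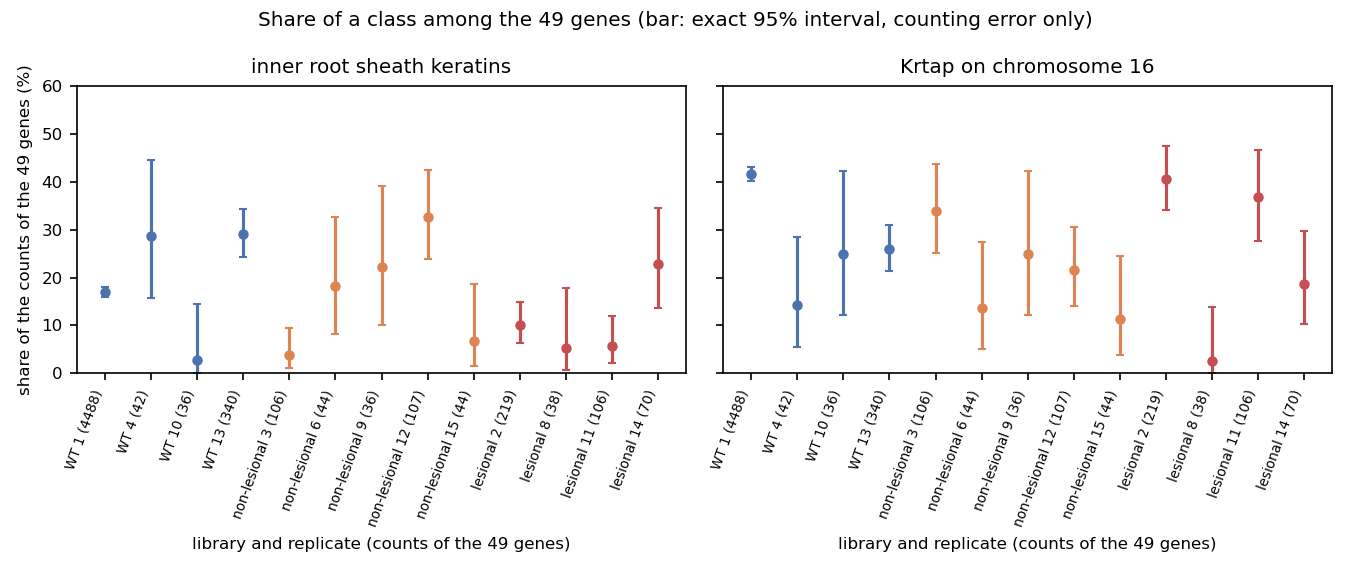
Share of the counts of the 49 genes (y axis, percent) that were inner root sheath keratins other than *Krt28* and *Krt72* (left) or *Krtap* genes of chromosome 16 (right) in each library with at least 30 such counts (x axis, with the counts in brackets; colours: WT blue, non-lesional orange, lesional red), with exact 95% intervals for counting error only. The highest shares on the left are those of non-lesional replicate 12, WT replicate 13 and WT replicate 4 at 32.7, 29.1 and 28.6%, and on the right those of WT replicate 1 and lesional replicate 2 at 41.6 and 40.6%.

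*Krt32* and *Krtap3-2* were the members with the highest levels outside WT replicate 1, and both were in every library. *Krt32* (ENSMUSG00000046095, chromosome 11 from 100080848 to 100088226) is a type I keratin of the hair cuticle. It had 32.2, 30.2, 26.0, 29.2 and 19.8 CPM in WT replicates 1, 4, 7, 10 and 13. Non-lesional replicates 3, 6, 9, 12 and 15 had 14.6, 16.6, 22.6, 13.97 and 24.2 CPM of *Krt32*, and lesional replicates 2, 5, 8, 11 and 14 had 12.2, 26.4, 15.7, 1.51 and 24.3 CPM. WT replicates 1, 4 and 10 were above every OTULIN E-KO library, WT replicate 7 was below lesional replicate 5, and WT replicate 13 lay within the range of both OTULIN E-KO groups. *Krtap3-2* (ENSMUSG00000069721, chromosome 11 from 99555823 to 99556853), a high-sulfur protein, had 79.9, 42.4, 39.8, 50.8 and 42.3 CPM in the WT libraries in the same order. It had 26.6, 48.6, 41.0, 42.7 and 40.9 CPM in the non-lesional and 25.4, 41.2, 37.3, 10.6 and 28.7 CPM in the lesional libraries. WT replicate 1 was the highest for both genes but only 1.22 and 1.82 times the mean of the other WT libraries, where *Krt25* was 25.2 times and *Krtap8-1* was 74.3 times that mean. Lesional replicate 11 was the lowest library for both.

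**Figure D5:**
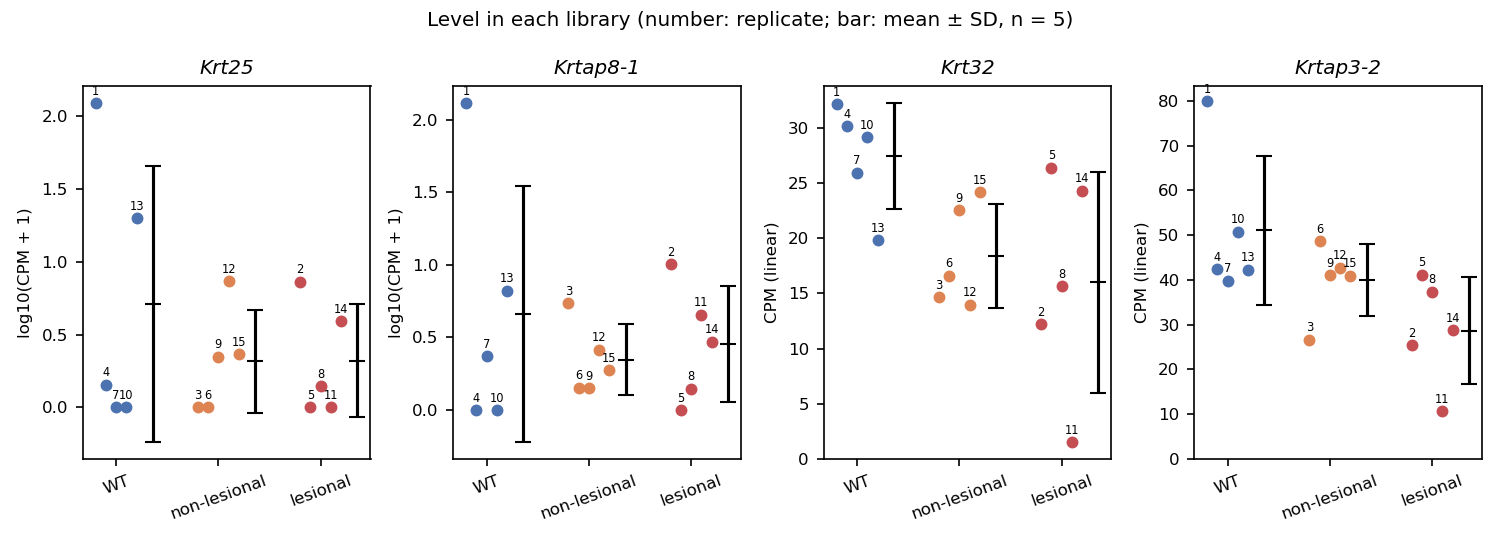
Level of *Krt25* and *Krtap8-1* (log10 of CPM + 1) and of *Krt32* and *Krtap3-2* (CPM, linear axis from 0) in each library of the 3 groups, with the replicate number at each point and the mean ± SD of the plotted values (n = 5) beside it. The first pair is highest in WT replicate 1, with *Krt25* next in WT replicate 13 at 19.1 CPM, and the second pair is present in every library and lowest in lesional replicate 11, at 1.51 and 10.6 CPM.

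Relative to its neighbour *Krtap3-3*, *Krtap3-2* took 89.2% of the counts of the pair in the 14 other libraries together (87.4 to 90.8%, exact 95% interval) and 38.4% in WT replicate 1 (34.2 to 42.6%). In WT replicate 13 and lesional replicate 2 it took 79.6% (72.005 to 85.9%) and 65.9% (54.8 to 75.8%). The balance of these adjoining genes thus differed between libraries beyond counting error, and the pair was chosen after the values were seen.

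Comparing non-lesional OTULIN E-KO skin with WT asks whether hair gene mRNA differs in skin of these mice away from lesions. Only *Krt32* and *Krtap3-2* had enough counts to enter the fit, so 51 of the 53 members were not tested. *Krt32* averaged 27.5 ± 4.83 CPM (SD, n = 5) in WT and 18.4 CPM in non-lesional skin, for a log2 fold change of -0.58 (standard error, SE, 0.19). The quasi-likelihood test of edgeR gave an unadjusted p of 0.00738 and, after adjustment, 0.9998. *Krtap3-2* had a log2 fold change of -0.35 (SE 0.20) with an unadjusted p of 0.0878 from the same test. With this test 0 of 2 members, and 0% of all 13021 genes tested, had an adjusted p under 0.05. At an unadjusted p under 0.05, 1 member was lower and 0 higher, against 1.31% of all genes lower and 1.85% higher. DESeq2's Wald test, fitted to 53 members, called 0 at an adjusted p under 0.05 (0.00367% of 27255 genes), and 7 lower and 0 higher at an unadjusted p under 0.05, against 0.807% and 0.91% of 27255 genes. By default DESeq2 withholds a p from genes with an outlying count and an adjusted p from genes with a low mean count. Such genes count here as not called, in each comparison. Without WT replicate 1 the log2 fold change was -0.51 for *Krt32* (unadjusted p = 0.0214) and -0.13 for *Krtap3-2* (unadjusted p = 0.428) in edgeR's test. The values of the groups overlapped for all 53 members, whereas 0.261% of 20292 genes were lower and 0.31% higher without overlap. They did so without WT replicate 1 too, where 0.488% of genes were lower and 0.547% higher without overlap.

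With no filter on low counts, edgeR tested all 53 members and gave a median log2 fold change of -3.32, with 21 lower and 0 higher at an unadjusted p under 0.05, against 2.2% of 27255 genes lower and 2.33% higher. Of the 53, 16 met the minimum for members only through WT replicate 1, so the lean to lower values follows in part from that choice. The same holds for DESeq2's test and for lesional against WT. 1 member, *Krtap19-3*, had an adjusted p under 0.05 (0.0159), as had 0.066% of all genes, with 25 counts in WT replicate 1, 4 in WT replicate 13 and 0 in every other WT and non-lesional library. Leaving out WT replicate 1 as well, the median of 50 members was -0.36, with 4 lower (1.44% of 26876 genes) and 0 higher (2.02%), and 0 at an adjusted p under 0.05 (0.0633%). The 4 were *Krt32*, *Krt81*, *Krtap15* and *Krtap19-3*. Of the 21 lower members, *Krt32* and *Krtap19-3* were still among these 4.

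For lesional skin against WT, 3 members entered the fit, and the question is the same for skin labelled lesional. Of its 5 libraries, replicates 5, 8 and 14 had 245 to 429 summed CPM of the 6 genes of inflamed epidermis, where WT replicates 4, 7, 10 and 13 had 277 to 487 CPM, and only replicates 2 and 11 were above every WT library. *Krtap3-2* averaged 51.0 ± 16.6 CPM (SD, n = 5) in WT and 28.6 CPM in lesional skin, for a log2 fold change of -0.83 (SE 0.31). The quasi-likelihood test of edgeR gave an unadjusted p of 0.0170 and, after adjustment, 0.926. *Krt32* had a log2 fold change of -0.78 (SE 0.43, unadjusted p = 0.0982 from edgeR) and *Krtap3-3* of -2.13 (SE 1.31, unadjusted p = 0.138 from edgeR). With this test 0 of 3 members, and 0% of 12918 genes, had an adjusted p under 0.05. At an unadjusted p under 0.05, 1 member was lower and 0 higher, against 1.56% and 3.24% of all genes. DESeq2's Wald test called 0 of 53 members at an adjusted p under 0.05 (0.0518% of 27027 genes), and 6 lower and 0 higher at an unadjusted p under 0.05, against 0.992% and 2.52% of 27027 genes. Groups overlapped for all 53 members, against 0.281% of 20292 genes that were lower and 0.424% that were higher without overlap. Leaving out WT replicate 1, the groups again overlapped for all 53, against 0.542% of genes lower and 0.724% higher.

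These values leaned on single libraries. Without WT replicate 1 the log2 fold change of *Krtap3-3* was 0.71 (unadjusted p = 0.337 from edgeR), in place of -2.13, and that of *Krtap3-2* was -0.61 (unadjusted p = 0.0605 from edgeR). Without lesional replicate 11, *Krtap3-2* was at -0.62 (unadjusted p = 0.0152 from edgeR) and *Krt32* at -0.49 (unadjusted p = 0.0612 from edgeR). Without lesional replicate 2 the median of the 3 members was -0.79, in place of -0.83. With no filter, the median of 53 members was -2.77, with 8 lower (1.72% of 27027 genes) and 0 higher (3.06%) at an unadjusted p under 0.05. With neither the filter nor WT replicate 1, the median of 51 members was 0.09, with 2 lower (1.35% of 26596 genes) and 1 higher (2.37%). The 2 lower members were *Krtap3-2* and *Krtap4-9* and the higher one was *Krt83*, so the sign of the median turned with WT replicate 1.

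Lesional and non-lesional skin are both OTULIN E-KO, and their comparison does not involve WT replicate 1. *Krtap3-2* had a log2 fold change of -0.48 (SE 0.28, unadjusted p = 0.117 from edgeR) and *Krt32* of -0.20 (SE 0.45, unadjusted p = 0.673 from edgeR). Without lesional replicate 11 they were -0.27 and 0.09, and without lesional replicate 2 they were -0.43 and -0.11. After adjustment 0 of 2 members, and 0% of 12864 genes, passed 0.05 in edgeR's test. Before adjustment 0 members passed, against 1.33% of genes lower and 2.89% higher. With DESeq2's Wald test 0 of 52 members were called at an adjusted p under 0.05 (0% of 27316 genes), and 2 were higher and 0 lower at an unadjusted p under 0.05, against 2.15% and 0.835%. With no filter the median of 52 members was 0.46 in edgeR's fit, with 4 higher (2.63% of 27316 genes) and 0 lower (1.86%) at an unadjusted p under 0.05, which were *Krt86*, *Krtap15*, *Krtap19-3* and *Krtap3-3*. All 53 members overlapped between these groups, where 0.291% of 20292 genes were lower and 0.31% higher without overlap. Lesional replicates 2 and 11 had 219 and 106 counts of the 49 genes, and the other 3 lesional libraries had 18 to 70.

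Other genes of the follicle were read from 5 lists of genes that are no members, for transcription factors, signals, further structural proteins, bulge stem cells and the dermal papilla. Of their 55 genes 33 entered the fit of non-lesional against WT, and 34 each of the others. In edgeR's test on these genes and in DESeq2's, 0 had an adjusted p under 0.05 in any comparison. At an unadjusted p under 0.05, 2 were lower in non-lesional than in WT skin (1.31% of all genes), 1 was lower in lesional than in WT skin (1.56%) and 3 were higher in lesional than in non-lesional skin (2.89%) in edgeR's test. In DESeq2's, 4 of 54 were lower in non-lesional than in WT skin (0.807% of all genes) and 3 of 54 in lesional than in WT skin (0.992%), and of 52 genes 3 were higher (2.15%) and 1 was lower (0.835%) in lesional than in non-lesional skin.

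Of the 17 further structural genes 9 were highest in WT replicate 1 and 2 were at 0 there, and their sum was 1329 CPM there and 109 to 285 CPM in the other 14 libraries. *Tchh*, the trichohyalin of the inner root sheath and medulla, had 965 CPM in WT replicate 1, 105 in WT replicate 13, 101 and 104 in lesional replicates 2 and 11, and 19.3 to 45.3 in the other 11 libraries. Its log2 fold change between lesional and WT libraries was -1.99 (SE 1.22, unadjusted p = 0.140 from edgeR) and 0.38 without WT replicate 1. *Lrrc15*, a membrane protein, had 190 CPM in WT replicate 1 and 14.5 to 59.3 CPM elsewhere. *Tgm3*, the transglutaminase that crosslinks sheath and shaft proteins, had medians of 28.6 CPM in WT, 13.1 CPM in non-lesional and 21.7 CPM in lesional libraries. Its log2 fold change was -0.90 (SE 0.28, unadjusted p = 0.00515 from edgeR) in non-lesional against WT and 1.05 (SE 0.31, unadjusted p = 0.00495 from edgeR) in lesional against non-lesional skin, with adjusted p of 0.9998 and 0.973. When no gene was filtered for low counts, the first value passed 0.05 in edgeR's test (-0.90, adjusted p = 0.0391), and it did so without WT replicate 1 too (-0.95, adjusted p = 0.0303).

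The 12 transcription factors summed to 904 CPM in WT replicate 1 and 631 to 847 CPM in the other 14, and the 12 signals to 354 against 201 to 470 CPM. *Hoxc13*, a transcription factor that acts on hair keratin genes, had 78.7 CPM in WT replicate 1 and 10.1 to 31.7 CPM in the other 14 libraries, with a log2 fold change of -0.81 (SE 0.46, unadjusted p = 0.106 from edgeR) in non-lesional against WT skin and of -0.23 (SE 0.25) without WT replicate 1. *Gata3*, which directs inner root sheath fate, and *Cux1* were the most abundant of this list, and *Gata3* had medians of 266, 281 and 239 CPM in WT, non-lesional and lesional libraries. *Cux1* had medians of 104, 110 and 99.7 CPM. *Ovol1*, a repressor in differentiating keratinocytes, had 130 CPM in lesional replicate 11, 84.3 CPM in lesional replicate 2 and 29.98 to 50.6 CPM in the other 13 libraries, with a log2 fold change of 0.67 (SE 0.37, unadjusted p = 0.0919 from edgeR) in lesional against WT skin. It was 0.26 (SE 0.27) without lesional replicate 11 and 0.56 (SE 0.39) without lesional replicate 2. *Bmp4* and *Bmp2* encode signals for differentiation of the matrix. *Bmp4* had medians of 129, 139 and 122 CPM in WT, non-lesional and lesional libraries, and *Bmp2* had 81.6, 70.8 and 53.0 CPM. *Bmp2* had a log2 fold change of -0.68 (SE 0.23, unadjusted p = 0.00936 from edgeR) in lesional against WT skin, and its adjusted p was 0.926.

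The 7 bulge genes summed to 4467 CPM in WT replicate 1 and 1429 to 4229 CPM elsewhere, and the 7 dermal papilla genes to 67.9 against 31.9 to 85.7 CPM. *Krt15*, a keratin of bulge stem cells and basal epidermis, had 2467 to 3421 CPM in WT libraries, with 2799 CPM in WT replicate 1, 2009 to 3263 CPM in non-lesional and 641 to 3283 CPM in lesional libraries, the lowest in lesional replicate 11. *Sox9*, a stem cell and outer root sheath factor, had 1076 CPM in WT replicate 1 and 299 to 555 CPM elsewhere. *Cd34*, a surface protein of bulge cells, had a log2 fold change of 0.16 (SE 0.12, unadjusted p = 0.192 from edgeR) in non-lesional against WT skin and of 0.10 (SE 0.12) without WT replicate 1. *Rspo3* and *Crabp1*, genes of the dermal papilla, had WT medians of 26.0 and 21.4 CPM, and *Rspo3* a log2 fold change of -0.61 (SE 0.35, unadjusted p = 0.105 from edgeR) in lesional against WT skin. *Hhip*, a binder of hedgehog proteins, had one of 0.21 (SE 0.32, unadjusted p = 0.521 from edgeR) in non-lesional against WT skin.

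Markers of other cells differed among the libraries that were high in hair genes. In WT replicate 1 the 6 genes of proliferating cells summed to 112 CPM, the lowest of the 15 libraries, where the others had 161 to 479 CPM and WT replicate 13 had 161. Non-lesional replicates 3 and 12 had 236 and 335 CPM of these genes, and lesional replicates 2 and 11 had 350 and 479 CPM. Melanocyte genes, 7 in all, summed to 111 CPM in WT replicate 1, against 106 to 270 CPM in the others. Lesional replicates 2 and 11 and non-lesional replicate 3 had 106, 110 and 134 CPM. WT replicate 13 and non-lesional replicate 12 had 227 and 226 CPM. All 6 proliferation genes and 6 of the 7 melanocyte genes were detected in WT replicate 1. The 6 genes of inflamed epidermis summed to 1303 CPM in WT replicate 1 and 1181 CPM in non-lesional replicate 3, beside the values of lesional replicates 2 and 11 given above, and to 245 to 487 CPM in the other 11 libraries. Their highest library by group was thus WT replicate 1, non-lesional replicate 3 and lesional replicate 11. Skeletal muscle genes, 6 in all, summed to 13087 CPM in WT replicate 1, 12657 CPM in WT replicate 13, 11887 CPM in lesional replicate 2 and 2830 CPM in lesional replicate 11, with a median of 19334 CPM in the 14 libraries other than WT replicate 1. Non-lesional replicates 3, 9 and 12 had 22033, 12215 and 15586 CPM of them. Lists for interfollicular epidermis, sebaceous gland, fat, erythrocytes and leukocytes had 10419, 796, 2465, 817 and 211 summed CPM in WT replicate 1, against 8625 to 15242, 556 to 957, 1116 to 3239, 782 to 3772 and 182 to 386 CPM in the other 14. WT replicate 1 was thus within the range of the other libraries for these 5 lists. The part of these cells in the levels of the hair genes was not tested.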

How the data were processed

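3′ mRNA libraries of skin were sequenced from 5 WT, 5 non-lesional and 5 lesional samples, grouped by the labels. The authors trimmed reads (cutadapt 2.10), aligned them with Subread, kept primary alignments of high mapping quality (SAMtools 1.7-2) and counted them per gene with featureCounts 2.0.1, keeping reads that overlap several genes, and their processing notes also name edgeR 3.30.3. No strand setting is named. The deposited counts are raw, without molecular identifiers. The deposited CPM are counts over the library total, equal within 1e-06 in all 15 columns, and were used as an alternative scaling. The 92 spike-in entries, all at 0 counts, were left out.

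Counts were scaled by TMM, filtered with filterByExpr and tested for each pair of groups with edgeR 4.0.16 (robust quasi-likelihood F-test) in R 4.3.3 across all genes, with Benjamini-Hochberg adjustment. A call was an adjusted p under 0.05. Alternatives were DESeq2 1.42.0, limma 3.58.1 with sample quality weights, other scalings and filters, and leaving out each library. Leaving out both the filter and WT replicate 1 was chosen after seeing the data. On simulated counts with 200 changed genes, the test of non-lesional against WT called 82 of 98 genes with a log2 change of 1, 98 of 99 with a log2 change of 2 and 10 of 12600 unchanged genes. For lesional against WT these were 55 of 93, 100 of 100 and 5 of 12426, and for lesional against non-lesional 62 of 105, 88 of 88 and 11 of 12407. These figures cover only genes that entered the fit. Recovery of genes with too few counts for the fit, as most members had, was not tested. Named genes were all keratins, the 10 *Krtap* genes with the highest mean CPM, the members and list genes with the smallest unadjusted p in each comparison, and the 2 most abundant genes of each follicle list. Others were named after their values were seen. Members and lists were chosen with earlier results of these data known. Libraries of 1962604 to 2567138 counts limit what can be seen of genes with few counts.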

Additional observations from a re-analysis of the deposited data

Results flagged for a closer look

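In 40 of 98 sets of 5 libraries, a single library lay apart from the other 4, judged by its gap to the nearest library as a share of the range of the group (Dixon's ratio, above 0.71 for 5 samples). This limit is set for normally distributed values, and how often groups of low counts pass it by chance was not tested. A group with counts in a single library has a ratio of 1.0, as *Krtap6-2* had in lesional libraries. The share over all genes is not given here, and genes of 1 class are not independent of each other.

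WT replicate 1 was the high library in 29 of the 40. For the summed levels the ratio was 0.861 for inner root sheath keratins, 0.938 for type I and 0.884 for type II shaft keratins, 0.9499 for keratin-associated proteins and 0.933 for all 53 genes. It was 0.936 for *Krtap* genes of chromosome 11 and 0.958 for those of chromosome 16. Among sheath keratins it was 0.845 for *Krt25*, 0.856 for *Krt27*, 0.928 for *Krt71* and 0.726 for *Krt72*. Among shaft keratins it was 0.905 for *Krt31*, 0.845 for *Krt34*, 0.902 for *Krt35*, 0.948 for *Krt36*, 0.839 for *Krt81*, 1.0 for *Krt83*, 0.882 for *Krt84* and 0.955 for *Krt86*. For *Krtap3-1*, *Krtap3-2* and *Krtap3-3* it was 0.912, 0.727 and 0.919. For *Krtap6-1*, *Krtap6-2* and *Krtap6-5* it was 0.972, 1.0 and 0.951. For *Krtap8-1*, *Krtap22-2*, *Krtap1-5* and *Krtap19-9b* it was 0.957, 0.973, 0.982 and 0.974. *Krt83*, *Krt86* and *Krtap6-2* had 9, 9 and 3 counts outside WT replicate 1. They met the minimum for members only through that library, so their ratios follow in part from it.

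Lesional replicate 2 was high among lesional libraries for the summed keratin-associated proteins (0.822), for all 53 genes (0.713), for *Krtap6-5* (0.722) and for *Krtap6-2* (1.0, on 1 count). Non-lesional replicate 12 was high among non-lesional libraries for *Krt25* (0.793), *Krt71* (0.903), *Krt34* (1.0, on 3 counts) and *Krtap6-2* (1.0, on 2 counts). Non-lesional replicate 3 was high for *Krtap22-2* (0.769). Non-lesional replicate 9 was high for *Krt73* (1.0, on 2 counts) and non-lesional replicate 15 for *Krt84* (0.722).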

How the results depend on the processing

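No paired analysis was possible because the labels name no mouse or litter for a library. The replicate numbers differ between all libraries and so do not show a pairing. Any pairing of lesional with non-lesional samples was left unused. Counts of members stayed within 1.5 times, and medians within 1 standard deviation, in 279 of 321 recomputations, and single genes kept direction and call in 421 of 430. In non-lesional against WT, DESeq2 fitted 53 members with a median log2 fold change of -3.33, 7 lower and 0 called. With no filter on low counts the figures were 53, -3.32, 21 lower and 1 called, and without WT replicate 1 as well, 50 tested and 4 lower. In lesional against WT, DESeq2 gave 53 fitted, a median of -2.83 and 6 lower, and no filter gave 53, -2.77 and 8 lower. Without WT replicate 1 as well it gave 51, 0.090, 2 lower and 1 higher. Quality weights gave 2 lower, and the share over all genes with these weights is not given here. In lesional against non-lesional, DESeq2 gave 52 fitted, a median of 0.51 and 2 higher, and no filter 52, 0.46 and 4 higher. At least 10 counts in every sample left 1 member tested in each comparison with lesional skin. The larger numbers tested follow from the weaker filters, and the cause of the other shifts was not tested.

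Leaving out 1 library at a time, 0 members were called in each comparison. Shares over all genes are not given for these fits, so their counts of lower or higher members stand without a background. In non-lesional against WT 2 to 3 were tested and 1 to 3 were lower (3 without WT replicate 7), with medians of -0.69 to -0.32. In lesional against WT 3 to 5 were tested (5 without WT replicate 7 or lesional replicate 5, 11 or 14) and 0 to 2 were lower (0 without WT replicate 1, 2 without WT replicate 7 or lesional replicate 5), with medians of -1.02 to -0.61. In lesional against non-lesional skin 0 to 1 was higher (*Krtap3-3*, without non-lesional replicate 3, 6 or 15 or lesional replicate 5, which passes the filter through its higher lesional libraries) and 0 to 1 lower (1 without lesional replicate 5), with medians of -0.45 to -0.08. The range of the summed level between WT libraries was 2.44-fold without WT replicate 1 and up to 22.6-fold with it. Signs turned in 7 cases, none with a call. *Krtap3-3* in lesional against WT was 0.43 with quality weights, 0.71 without WT replicate 1 and 0.70 without the filter as well, with a range of -2.54 to 0.71 over single libraries left out. *Tchh* was 0.38 and 0.37 in the last 2 settings, with a range of -2.30 to 0.38. *Krt32* in lesional against non-lesional skin was 0.090 without lesional replicate 11, and *Hhip* in non-lesional against WT was -0.0087 without non-lesional replicate 9. *Tgm3* passed the threshold in non-lesional against WT with no filter (-0.90, adjusted p = 0.0391 from edgeR). Genes with few counts limit these comparisons: 21 of the 53 had under 50 counts in all.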

Other observations

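Other genes also had most of their counts in WT replicate 1. Beside the members, 33 genes with at least 10 counts had over 50% there, named here after their values were seen. *Car6*, a secreted carbonic anhydrase, had 1022 of 1711 counts (59.7%) in WT replicate 1. *Pinlyp* had 522 of 723 (72.2%). *S100a3*, a calcium-binding protein of the hair cuticle, had 46 of 86 (53.5%), and *Padi1*, an enzyme that converts arginine to citrulline, had 23 of 30 (76.7%). *Krt33b*, a type I shaft keratin that the naming rule does not include, had 30 of 34 (88.2%). *Gprc5d*, a receptor known from hair-forming cells, had 8 of 11 (72.7%). A gene that the annotation names *Krtap6-3*, with no symbol in the count table, had 98 of 103 (95.1%).

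Genes with over 50% of their counts in another single library were most frequent for lesional replicate 11, with 106 genes and 0 members among them.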
